A study of Bos taurus with 9 samples.

Results

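Transcripts of pyruvate entry, the tricarboxylic acid (TCA) cycle and the reactions that refill or drain it were mostly near level across bovine blastocysts from 3 oocyte maturation media. Only ME1, the cytosolic malic enzyme gene, had an edgeR adjusted p under 0.05, in low glucose against control. That is 1 of 36 genes or 2.78%, near the 2.03% of all tested genes. The call held in 4 of 9 fits that left out a library. For PDK4 and PCK2 the intervals against control left a 2-fold change open. The set holds 36 genes, found by symbol in a table of 22127 genes. It comprises 5 genes of the pyruvate dehydrogenase (PDH) complex, 4 PDH kinases, 2 PDH phosphatases, 2 subunits of the mitochondrial pyruvate carrier and 12 mitochondrial TCA cycle enzymes. A further 5 genes encode cytosolic counterparts and 6 encode enzymes that feed or drain the cycle. All 36 had enough counts to be tested, among 16469 tested genes in all.

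Pyruvate enters the mitochondrion through its carrier and meets 2 fates. The PDH complex turns it into acetyl-CoA, a step blocked when PDH kinases phosphorylate the complex and released by PDH phosphatases, while pyruvate carboxylase turns it into oxaloacetate. Citrate synthase joins both products, and the cycle then oxidises the citrate and yields reducing power for respiration. Citrate, malate and aspartate also leave for the cytosol, where they serve lipid synthesis, NADPH supply and the malate-aspartate shuttle. The early bovine embryo depends on pyruvate and lactate and takes up more glucose as the blastocyst forms.

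Messenger RNA was sequenced in 9 libraries of Bos taurus blastocysts collected at day 8 after in vitro fertilisation, 3 libraries for each maturation medium. Oocytes within their cumulus cells had been held for 24 hours in low glucose with BHB (2.75 mM glucose and 1.8 mM BHB, read here as beta-hydroxybutyrate), in low glucose (2.75 mM) or in control medium (5.5 mM). All 3 media contained serum, pyruvate, FSH and estradiol, and fertilisation and embryo culture were shared, so the exposure ended before the embryo formed. Each library was a pool of 9 to 11 whole embryos, with trophectoderm and inner cell mass together, and the labels tie no replicate to a separate culture. The p-values thus set a difference between media against the spread between these libraries. Part of that spread may be technical, and it may understate the spread between separate cultures.

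Total estimated counts ran between 55611205 and 75178898 per library. Markers of the blastocyst lineages were present throughout. Summed over each list, trophectoderm markers reached 14157 to 21803 counts scaled to a library size of 1000000 (CPM). Hypoblast markers reached 5595 to 8140 CPM and epiblast markers 1612 to 2205 CPM. Cumulus and granulosa cell markers summed to 617 to 1397 CPM, and blood and immune cell markers to 45.9 to 76.2 CPM. The lists differ in size and in genes, so their sums do not measure shares of cells. Levels below are CPM scaled by TMM factors, and since transcript lengths were not used here, they are compared between libraries and never between genes. A gene is called where the adjusted p of edgeR's quasi-likelihood test, corrected by Benjamini-Hochberg over all tested genes, lies under 0.05.

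As a block, the 36 genes took 0.735% to 0.851% of the counts of low glucose with BHB libraries, 0.767% to 0.814% of low glucose libraries and 0.792% to 0.831% of control libraries. These ranges overlap in every pairing. The median log2 fold change of the 36 genes was 0.02 for low glucose over control, 0.01 for low glucose with BHB over control and -0.02 for low glucose with BHB over low glucose. Over all tested genes the same medians were 0.02, 0.01 and 0.0054. A log2 change beyond 0.5 in either direction was found for 1 of 36 genes in low glucose and 2 of 36 with BHB, both against control, beside 21.3% of all tested genes in each comparison. As a measure of reads per gene and not of expression, the median was 137 CPM over the members and 11.3 CPM over all tested genes.

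**Figure D1:**
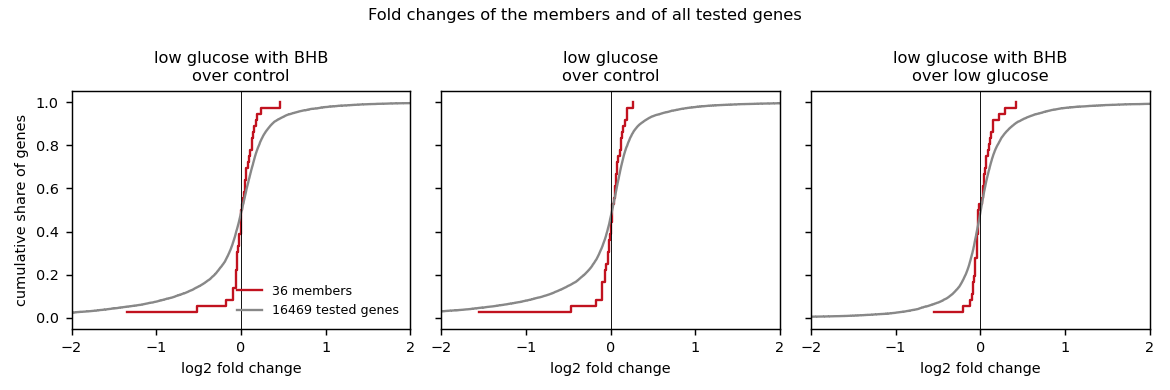
Cumulative share of genes (vertical axis) at or below each log2 fold change (horizontal axis, shown between -2 and 2) for the 36 members in red and the 16469 tested genes in grey, 1 panel per comparison. The red steps rise steeply around 0 in each panel, and the lone step at the far left in both comparisons with control is ME1, at -1.34 for low glucose with BHB and -1.56 for low glucose.

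ME1 was lower in blastocysts of both low glucose media. The enzyme turns malate into pyruvate in the cytosol and makes NADPH, which cells spend on fatty acid synthesis and glutathione reduction. Low glucose with BHB libraries held 2.12, 2.31 and 2.67 CPM, low glucose libraries 2.89, 1.41 and 1.80 CPM, and control libraries 5.85, 5.95 and 6.17 CPM. Neither low glucose medium overlapped control, and the 2 low glucose media overlapped each other. In counts these levels stood for 129 to 171 counts per library with BHB, 100 to 189 in low glucose and 348 to 427 in control. In pooled embryos, fewer cells of a type and less RNA per cell cannot be told apart.

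ME1 fell in low glucose, with a log2 fold change of -1.56 (SE 0.303, 95% interval -2.22 to -0.90), or 2.95-fold, at an edgeR adjusted p of 0.0179. It was the only member called in that comparison, 1 of 36 or 2.78%, where 2.03% of all tested genes were called, 2.02% lower and 0.00607% higher. With BHB the log2 fold change against control was -1.34 (SE 0.301, 95% interval -1.996 to -0.68), or 2.53-fold, and the edgeR adjusted p was 0.0541, above the threshold. DESeq2 put this value under the threshold (adjusted p = 0.00218), as did limma-voom (adjusted p = 0.0295). Of 16469 tested genes DESeq2 called 420 with BHB against control and limma-voom 263, beside 228 in edgeR. Both contrasts use the same control libraries. Between the low glucose media ME1 differed by 0.22 (SE 0.300, 95% interval -0.43 to 0.87), which was not called.

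The low glucose call on ME1 was lost without control replicate 1 (log2 fold change -1.58, edgeR adjusted p = 0.0524), 2 (-1.56, adjusted p = 0.0562) or 3 (-1.52, adjusted p = 0.0793), and without low glucose replicate 2 (-1.34, adjusted p = 0.0919) or 3 (-1.48, adjusted p = 0.0754). The log2 fold change of ME1 in low glucose lay between -1.88 and -1.34 in the 9 fits that left out a library. As the 2 groups did not overlap, leaving out 1 library could not turn its sign. With BHB against control, ME1 was called without low glucose replicate 1 (edgeR adjusted p = 0.0298) or 2 (adjusted p = 0.0489), libraries outside that contrast that share in the estimate of the spread. Without a library of the contrast itself ME1 was not called, at an edgeR adjusted p between 0.140 and 0.203 without a control library and between 0.147 and 0.194 without a BHB library. Of 20 cumulus and granulosa cell markers, 5 were called lower in low glucose and 5 with BHB, with median log2 fold changes of -1.13 in low glucose and -0.94 with BHB. LUM, DCN, VCAN and GJA1 were called in both, GREM1 in low glucose only and COL3A1 with BHB only. Above control lay 3 of the 20 in low glucose and 4 with BHB. HSD3B1, FSHR and CYP19A1 were not called, with log2 fold changes of 0.39, 0.21 and -0.12 in low glucose. With BHB these were 0.39, -0.22 and 0.08. Their summed level ran between 734 and 1259 CPM with BHB, 617 and 1397 CPM in low glucose and 1044 and 1210 CPM in control. Of these sums PTGS2, which is also on the trophectoderm list, held 464 to 928 CPM with BHB, 414 to 1011 CPM in low glucose and 355 to 544 CPM in control. Without PTGS2, left out after its values were seen, the other 19 markers summed to 235 to 331 CPM with BHB, 203 to 386 CPM in low glucose and 590 to 855 CPM in control, so that both low glucose media lay below control. Much of that gap lay in LUM, COL1A2 and VCAN. Their mean levels were 139, 211 and 74.9 CPM in control and 14.3, 83.7 and 12.8 CPM in low glucose. With BHB they were 12.3, 86.3 and 7.71 CPM. HSD3B1 went the other way, at a mean of 45.3 CPM in control, 59.5 CPM in low glucose and 59.3 CPM with BHB. INHA in low glucose was the only marker without counts in a group. The part of these cells in the ME1 result was not tested.

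ME2, the mitochondrial malic enzyme gene, was not called in any comparison. It was measured at 15.3, 31.4 and 20.4 CPM with BHB, at 18.7, 28.7 and 18.2 CPM in low glucose and at 16.2, 26.3 and 20.2 CPM in control, so that the 3 media overlapped. Its log2 difference from control was 0.10 (SE 0.274) with BHB and 0.06 (SE 0.274) in low glucose. The count ratio of ME1 to ME2 within a library averaged 0.114 ± 0.0356 with BHB, 0.101 ± 0.0528 in low glucose and 0.297 ± 0.0675 in control (SD, n = 3 each). Every control library, at 0.226 or more, lay above every other library, of which the highest stood at 0.155. The ratio is given as a description, since ME1 carries most of its change.

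**Figure D2:**
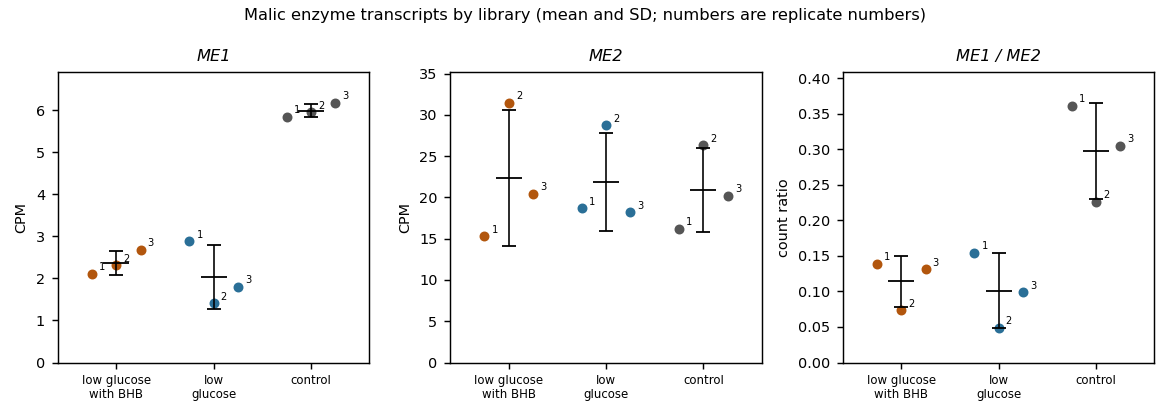
ME1 and ME2 in CPM and their count ratio (vertical axes) by library, for low glucose with BHB, low glucose and control (horizontal axis). Points are libraries with their replicate numbers, bars the mean and SD. ME1 stands at 5.85 to 6.17 CPM in control and at 1.41 to 2.89 CPM in the other 6 libraries, while ME2 overlaps between all media and is highest in replicate 2 of each.

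The other cytosolic enzymes showed no called change. ACO1, the cytosolic aconitase that doubles as iron regulatory protein, measured 79.0, 64.8 and 70.2 CPM with BHB, 76.7, 61.8 and 54.6 CPM in low glucose and 85.6, 61.6 and 70.0 CPM in control. Its log2 difference was -0.02 (SE 0.158) with BHB and -0.17 (SE 0.158) in low glucose. IDH1, the cytosolic isocitrate dehydrogenase and another source of NADPH, lay between 539 and 695 CPM in all 9 libraries, with log2 differences from control of -0.0013 with BHB and -0.04 in low glucose. MDH1 and GOT1, the cytosolic arm of the malate-aspartate shuttle, lay between 208 and 261 CPM and between 82.5 and 95.3 CPM. GOT1 was the steadiest member, its highest library 1.16-fold above its lowest.

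Isozyme pairs other than the malic enzymes kept similar count ratios. The ratio of IDH1 to IDH2 averaged 9.68 ± 3.199 with BHB, 10.1 ± 3.23 in low glucose and 9.97 ± 1.80 in control, and that of GOT1 to GOT2 averaged 0.425 ± 0.0330, 0.434 ± 0.0658 and 0.433 ± 0.0412 for the same 3 media (SD, n = 3 each). MDH1 to MDH2 averaged 0.365 ± 0.0289 with BHB, 0.379 ± 0.0204 in low glucose and 0.421 ± 0.0400 in control (SD, n = 3 each), with overlapping libraries. SUCLA2 to SUCLG2, the ADP-forming and GDP-forming beta subunits of succinyl-CoA synthetase, averaged 0.716 ± 0.0940 with BHB, 0.696 ± 0.0884 in low glucose and 0.752 ± 0.0375 in control (SD, n = 3 each).

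At the entry of pyruvate, neither carrier subunit was called. MPC1 measured 117, 176 and 145 CPM with BHB, 134, 164 and 167 CPM in low glucose and 90.5, 152 and 146 CPM in control. The lowest value was control replicate 1, and the groups overlapped. The log2 difference from control was 0.17 (SE 0.198) with BHB and 0.26 (SE 0.198) in low glucose. MPC2, its partner in the carrier, varied less, with 70.9, 67.5 and 75.7 CPM with BHB, 73.9, 75.3 and 76.1 CPM in low glucose and 71.2, 68.8 and 83.1 CPM in control.

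None of the 5 genes of the PDH complex was called in any comparison. PDHA1, the catalytic alpha subunit that the kinases phosphorylate, measured 289, 341 and 417 CPM with BHB, 353, 307 and 315 CPM in low glucose and 325, 374 and 345 CPM in control. Both extremes lay in the BHB group, and the log2 difference from control was 0.0041 (SE 0.136) with BHB and -0.10 (SE 0.136) in low glucose. PDHB, the beta subunit, measured 248, 412 and 328 CPM with BHB, 312, 377 and 344 CPM in low glucose and 255, 346 and 301 CPM in control. Replicate 1 was lowest and replicate 2 highest for PDHB in each medium. DLAT, the acetyltransferase core, PDHX, which anchors DLD to it, and DLD, the dehydrogenase shared with the 2-oxoglutarate complex, had log2 differences between -0.10 and 0.11 in the comparisons with control. PDHA1 had fractional estimated counts, more than 0.01 from a whole number, in all 9 libraries, as 4 other members (MDH1, CS, GOT2 and OGDH) had in some, and the levels of genes whose reads may be shared with similar sequences are uncertain.

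Among the kinases that shut the PDH complex, PDK3 had the smallest unadjusted p of any member other than ME1. It measured 27.7, 27.7 and 34.9 CPM with BHB, 21.5, 19.5 and 26.5 CPM in low glucose and 26.4, 36.3 and 30.5 CPM in control. Low glucose lay below BHB in every library and overlapped control only through its replicate 3 and control replicate 1. The log2 difference of PDK3 in low glucose was -0.47 (SE 0.171, 95% interval -0.84 to -0.09) against control, at an edgeR adjusted p of 0.379, and with BHB it was 0.42 over low glucose (SE 0.171, 95% interval 0.05 to 0.79) and -0.05 (SE 0.170) over control. Without adjustment the first and second of these had edgeR p of 0.0183 and 0.0303. Neither passed over all genes, and both rest on the same low glucose libraries.

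PDK1, a kinase induced by hypoxia, measured 33.2, 35.9 and 31.4 CPM with BHB, 34.4, 36.1 and 24.2 CPM in low glucose and 27.2, 34.5 and 37.7 CPM in control. PDK2, the broadly expressed kinase, measured 12.8, 8.15 and 9.16 CPM with BHB, 9.83, 8.56 and 11.4 CPM in low glucose and 10.2, 10.1 and 8.46 CPM in control. Both overlapped between all media, with log2 differences from control no larger than 0.07 in size. PDK4, the kinase that fasting and fatty acids induce in muscle and liver, was close to the detection limit, with 16, 28 and 23 counts with BHB, 43, 40 and 19 counts in low glucose and 1, 66 and 39 counts in control. Its 95% interval against control reached from -2.62 to 1.58 with BHB and from -2.07 to 2.11 in low glucose, so that a 2-fold change in either direction lay within both intervals.

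The phosphatases that reopen the complex were not called. PDP1 measured 19.1, 28.8 and 32.9 CPM with BHB, 32.8, 32.6 and 27.8 CPM in low glucose and 28.9, 31.5 and 30.6 CPM in control, with BHB replicate 1 below all others. PDP2 measured 61.7, 103 and 99.8 CPM with BHB, 73.0, 106 and 91.9 CPM in low glucose and 62.0, 90.1 and 84.5 CPM in control. For PDP2, replicate 1 was the lowest of each medium.

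**Figure D3:**
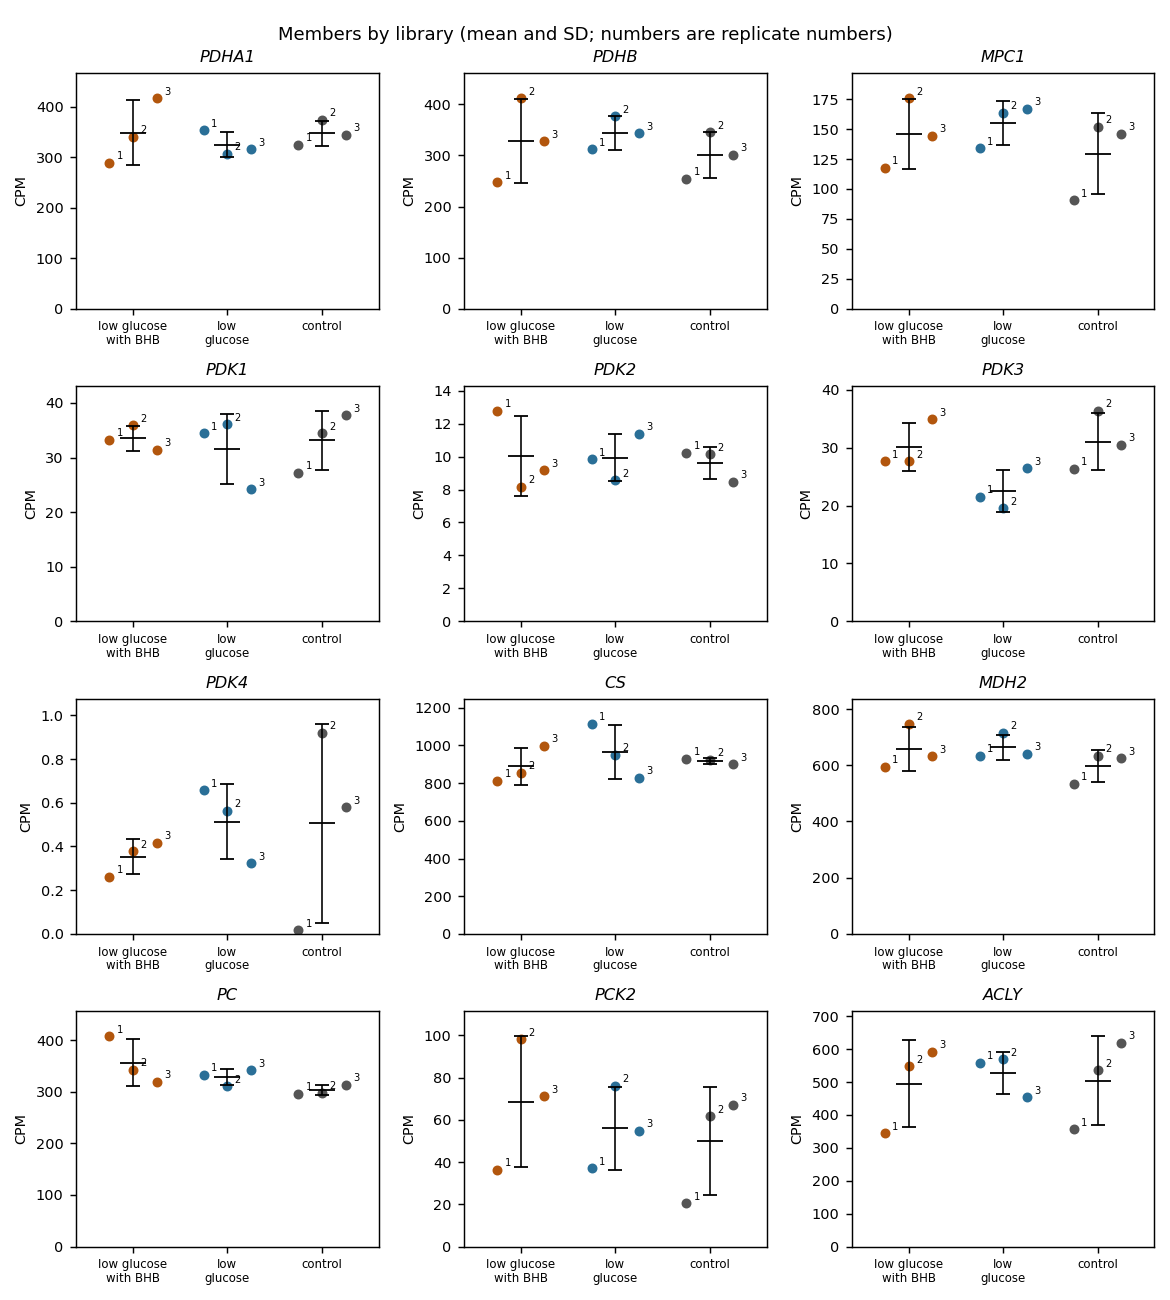
CPM by library (vertical axes, from 0) for 12 members in low glucose with BHB, low glucose and control (horizontal axes). Points are libraries with their replicate numbers, bars the mean and SD. PDK3 has its lowest mean in low glucose, with libraries that overlap control. PC lies higher with BHB (319 to 408 CPM) than in control (297 to 314 CPM), and PCK2 is lowest in replicate 1 of every medium. None of these genes was called.

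Within the TCA cycle, 0 of 12 enzyme genes were called by edgeR in any comparison, and none had an unadjusted p under 0.05. Of all tested genes, 2.03% were called in low glucose against control, 1.38% with BHB against control and 0% between the low glucose media. At an unadjusted edgeR p under 0.05 these shares were 7.33%, 7.32% and 1.64%. With 12 genes, counts of 0 are near these shares. CS, citrate synthase, measured 813, 854 and 999 CPM with BHB, 1115, 950 and 827 CPM in low glucose and 930, 924 and 899 CPM in control. The controls lay close together inside the range of both other media, and the log2 difference was -0.05 (SE 0.125) with BHB and 0.07 (SE 0.125) in low glucose. MDH2, which regenerates oxaloacetate, measured 595, 748 and 632 CPM with BHB, 634, 716 and 640 CPM in low glucose and 533, 633 and 626 CPM in control. Its low glucose libraries did not overlap control, but the nearest pair stood at 634 and 633 CPM, and the log2 difference of 0.15 (SE 0.120) was not called. IDH3G, a regulatory subunit of the NAD-dependent isocitrate dehydrogenase, measured 104, 101 and 91.7 CPM with BHB, 89.4, 86.8 and 107 CPM in low glucose and 82.2, 92.2 and 86.4 CPM in control, a log2 difference of 0.19 (SE 0.117) with BHB and 0.12 (SE 0.117) in low glucose.

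None of the remaining 9 cycle enzymes was called. IDH3A and IDH3B, the other subunits of that dehydrogenase, differed from control by -0.09 (SE 0.144) and 0.05 (SE 0.109) on the log2 scale with BHB, and by 0.0048 and -0.0032 in low glucose. OGDH and DLST, of the 2-oxoglutarate dehydrogenase complex, lay between 143 and 191 CPM and between 126 and 159 CPM over all libraries. SUCLG1, SUCLA2 and SUCLG2, of succinyl-CoA synthetase, had log2 differences from control between -0.05 and 0.09. FH, fumarase, lay between 128 and 196 CPM, and IDH2, the mitochondrial NADP-dependent isocitrate dehydrogenase, between 50.3 and 94.3 CPM. Over the 12 genes the log2 differences ran from -0.09 to 0.19 with BHB and from -0.05 to 0.15 in low glucose, and every 95% interval lay within a 2-fold change in either direction.

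Among the genes that feed or drain the cycle, PC stood a little higher with BHB than in control, though it was not called. PC, pyruvate carboxylase, makes oxaloacetate from pyruvate and measured 408, 343 and 319 CPM with BHB, 333, 311 and 342 CPM in low glucose and 297, 299 and 314 CPM in control. All BHB libraries lay above all controls, as did those of 4.77% of tested genes. The log2 difference of PC was 0.24 with BHB (SE 0.113, 95% interval -0.01 to 0.48, edgeR adjusted p = 0.720) and 0.12 in low glucose (SE 0.113), neither called. With BHB over low glucose it was 0.12 (SE 0.113), not called, and these libraries overlapped. BHB replicate 1 was the highest library, and without it the difference from control was 0.13.

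PCK2, mitochondrial phosphoenolpyruvate carboxykinase, which draws oxaloacetate off toward glycolytic intermediates, was the most uneven of the well-measured members. It measured 36.4, 98.1 and 71.2 CPM with BHB, 37.0, 76.1 and 54.8 CPM in low glucose and 20.5, 61.7 and 67.3 CPM in control. Replicate 1 was lowest in each medium, and the spread within media exceeded the difference between them. The log2 difference from control was 0.46 (SE 0.424, 95% interval -0.46 to 1.38) with BHB and 0.17 (SE 0.424, 95% interval -0.75 to 1.09) in low glucose.

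ACLY, ATP citrate lyase, turns exported citrate into the acetyl-CoA of lipid synthesis and histone acetylation. It measured 344, 548 and 591 CPM with BHB, 558, 569 and 453 CPM in low glucose and 356, 536 and 620 CPM in control. The lowest libraries were replicate 1 with BHB and replicate 1 of control, and the log2 difference was -0.03 (SE 0.220) with BHB and 0.06 (SE 0.220) in low glucose. GLUD1, glutamate dehydrogenase, and GOT2, mitochondrial aspartate aminotransferase, which link the cycle to amino acids, lay between 999 and 1377 CPM and between 180 and 226 CPM. Neither was called in any comparison.

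**Figure D4:**
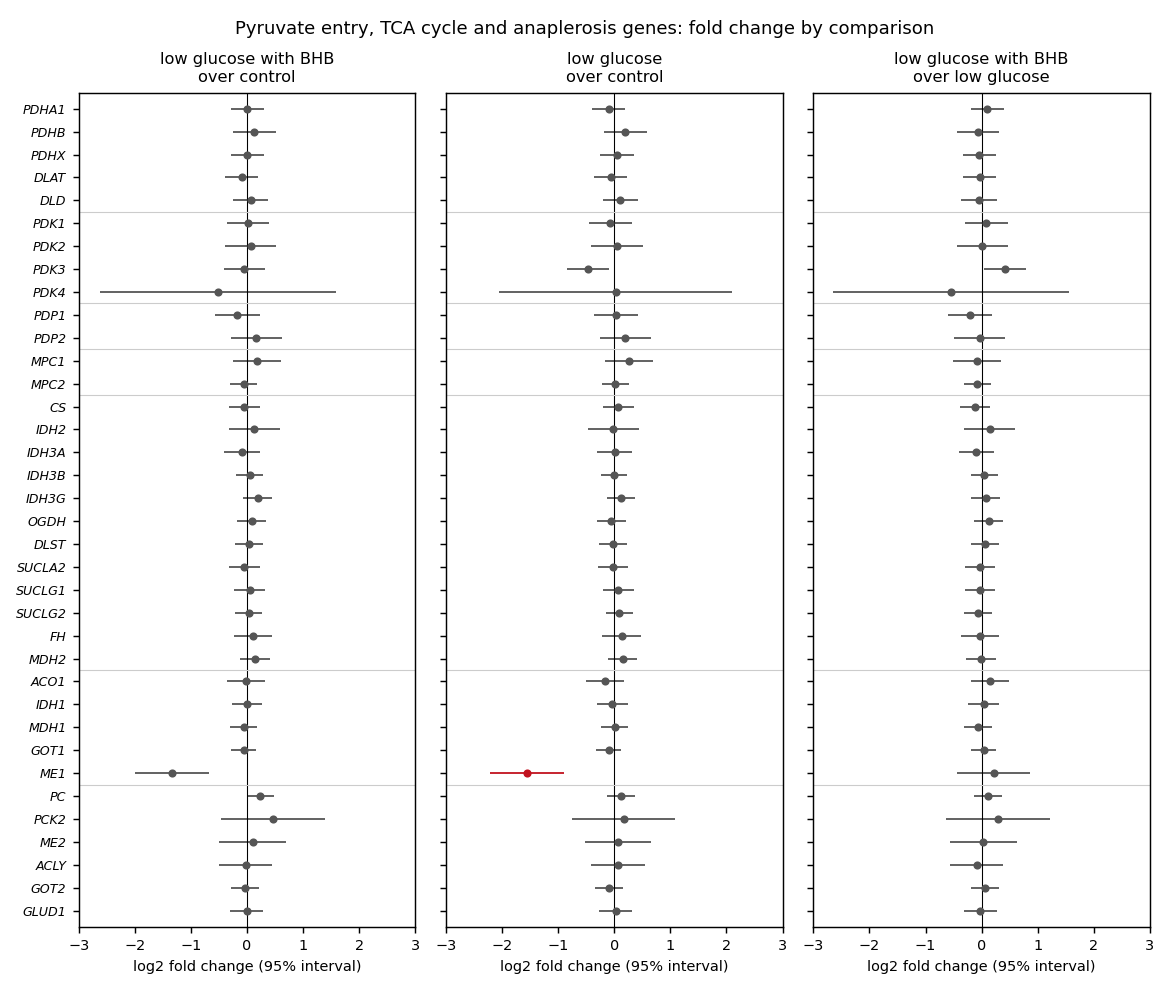
Log2 fold change (horizontal axis) with its 95% interval for each of the 36 genes (vertical axis, grouped by role with grey lines), 1 panel per comparison. Red marks the only call, ME1 in low glucose over control at -1.56, and the widest intervals belong to PDK4 and PCK2.

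Read across roles, the intervals give a range of change for each member, set by the spread between these libraries. Each holds for a single gene, and for separate cultures it may be too narrow. In low glucose against control, the 95% interval lay within a 2-fold change either way for 33 of 36 members, and within 1.5-fold for 29. With BHB against control the numbers were also 33 and 29. The members outside 2-fold were ME1, PDK4 and PCK2 in both. In low glucose 2 of 36 members, ME1 and PDK3, had an unadjusted edgeR p under 0.05, as had 7.33% of all tested genes. With BHB against control, 0 of 36 members were called by edgeR, with 1.38% of all tested genes called and 0.00607% called higher. ME1 was the single member at an unadjusted edgeR p under 0.05 in that comparison, beside 7.32% of all tested genes. DESeq2 and limma-voom both called it, among 420 and 263 of all 16469 tested genes.

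Between low glucose with BHB and low glucose, 0 of 36 members were called by edgeR, where 0% of all tested genes were called. DESeq2 and limma-voom called 0 members as well. At an unadjusted edgeR p under 0.05 stood 1 member, PDK3, and 270 of all tested genes, or 1.64%. The 95% interval lay within 2-fold for 34 of 36 members, the others being PDK4 and PCK2. PDK3 was also the only member whose libraries did not overlap, higher with BHB, as were those of 2.96% of tested genes, while 0 members and 2.54% of tested genes lay lower.

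Groups that did not overlap were few in the comparisons with control. In low glucose, ME1 alone lay below control, as did 8.85% of tested genes, and MDH2 alone lay above it, as did 4.31%. With BHB, ME1 alone lay below, beside 8.56% of tested genes, and PC alone lay above.

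The spread within media was narrow. The coefficient of variation of CPM within a medium, averaged over the 3 media, had a median of 10.8% over the members and 18.5% over all tested genes, which had fewer reads. It exceeded 18.5% in 7 members: MPC1 at 19.3%, IDH2 at 21.0%, PDP2 at 21.1%, ACLY at 21.9%, ME2 at 29.5%, PCK2 at 43.8% and PDK4 at 48.9%. In 21 of 36 members the highest of the 9 libraries stood less than 1.5-fold above the lowest. The 4 members at 2-fold or more were ME1, ME2, PCK2 and PDK4.

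Part of that spread followed the replicate numbers. Replicate 2 was the highest library in every medium for 10 of 36 members, or 27.8%, against 4.55% of all tested genes. These were FH, IDH2, IDH3A, MDH1, MDH2, ME2, PDHB, PDHX, PDP2 and SUCLG1. Replicate 1 was the lowest in every medium for 8 members, or 22.2%, against 8.00% of all tested genes, namely DLST, IDH2, IDH3B, MDH2, MPC1, PCK2, PDHB and PDP2. Replicate 1 was the highest in every medium for 1 member, ACO1 (7.61% of all tested genes), and replicate 3 for 1 member, MPC2 (4.12%). Replicates 2 and 3 were the lowest in every medium for 0 members, against 4.38% and 4.51% of all tested genes. The labels do not say what a replicate number stands for. Replicate 2 was also the deepest library of each medium, with 75178898 counts for BHB, 73183334 for low glucose and 70932864 for control, and the part of depth in the pattern was not tested.

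BHB replicate 1 held the lowest value of all 9 libraries for 13 of 36 members, or 36.1%, against 13.5% of all tested genes. Among these were CS, IDH3A, PDHA1, PDHB, ACLY and GLUD1. BHB replicate 2 held the highest value for 11 members, or 30.6%, against 13.0% of all tested genes. Transcripts of 13 mitochondrially encoded genes made up 3.36% of counts in BHB replicate 1 and 2.25% in BHB replicate 2, the 2 lowest shares, and 6.19% in BHB replicate 3. Low glucose libraries held 4.41% to 7.93% and control libraries 4.75% to 5.36%. The part of these libraries' mitochondrial share in the pattern was not tested.

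**Figure D5:**
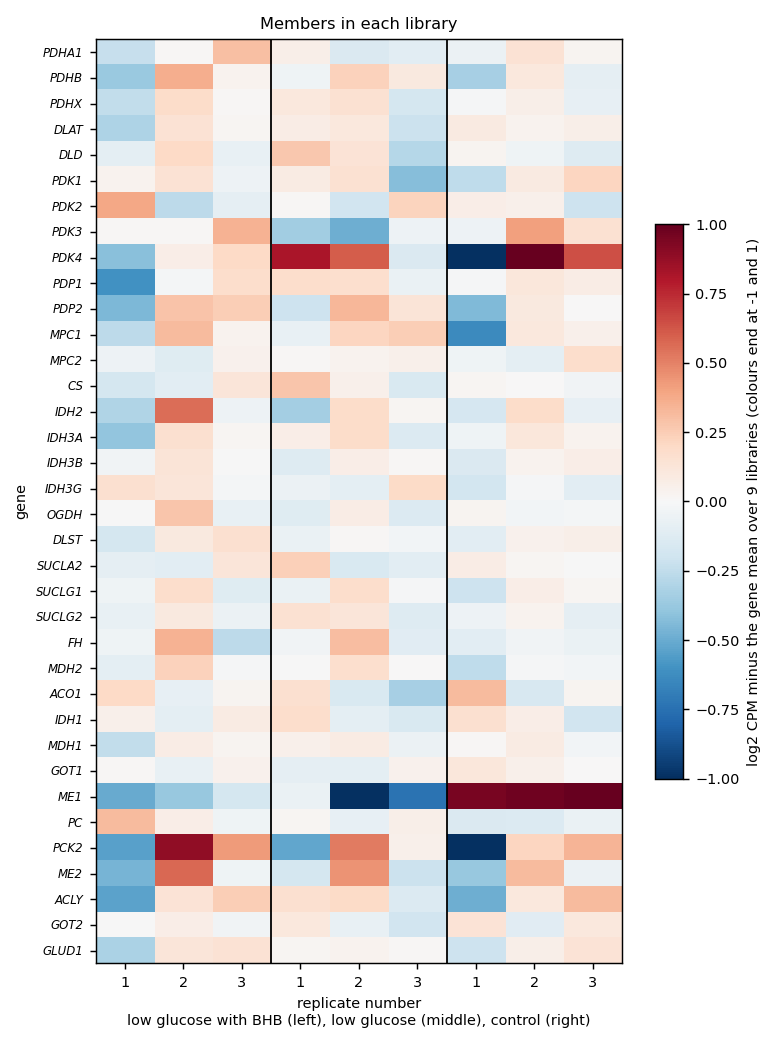
Log2 CPM of the 36 genes (rows) in 9 libraries (columns, by medium and replicate number), less the mean of each gene; colours end at -1 and 1. ME1 is high in the 3 control libraries, and the column of BHB replicate 1 is blue for most genes, with a median of -0.14, while that of BHB replicate 2 has a median of 0.12.

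Of 47 further genes of the pathway (succinate dehydrogenase, lipoylation, mitochondrial carriers, glutamine, alanine, propionate and branched-chain keto acid metabolism, lactate dehydrogenase and sirtuins among them), 45 were tested and 0 were called by edgeR in any of the 3 comparisons. At an unadjusted edgeR p under 0.05 stood 1 of them in low glucose against control, 2 with BHB against control and 1 between the low glucose media. Among all tested genes, the same 3 comparisons had 2.03%, 1.38% and 0% called, and 7.33%, 7.32% and 1.64% at that unadjusted p. A count of 0 called among 45 genes is near these shares. SLC25A12, a mitochondrial aspartate-glutamate carrier of the malate-aspartate shuttle, measured 3.86, 5.24 and 5.35 CPM with BHB, 2.73, 4.34 and 3.75 CPM in low glucose and 4.12, 13.2 and 10.9 CPM in control. Control replicate 1 lay among the other media, and the log2 difference was -0.97 (SE 0.369, edgeR adjusted p = 0.481) with BHB and -1.38 (SE 0.373, edgeR adjusted p = 0.107) in low glucose.

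GPT2, mitochondrial alanine aminotransferase, which interconverts pyruvate and alanine, measured 113, 115 and 101 CPM with BHB, 87.2, 104 and 88.6 CPM in low glucose and 90.9, 80.9 and 86.9 CPM in control. The BHB libraries lay above all controls and overlapped low glucose, with a log2 difference from control of 0.35 (SE 0.114, edgeR adjusted p = 0.303). GPT, its cytosolic counterpart, was measured at 1.62, 1.40 and 1.64 CPM with BHB, 2.95, 2.25 and 2.99 CPM in low glucose and 1.83, 2.09 and 3.36 CPM in control, and its log2 difference of -0.81 between BHB and low glucose (SE 0.331) was not called. SDHA, the catalytic subunit of succinate dehydrogenase, and LDHA and LDHB, the lactate dehydrogenase subunits, had log2 differences from control between -0.13 and 0.11.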

How the data were processed

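The submitters' processing notes list the build bosTau9 and the tools kallisto, fastp and DESeq2. Their versions, roles and annotation are not given in the sources here. The deposited file holds estimated counts per gene, of which 23.4% are not exactly whole (no tolerance). Each column name equals 1 sample's description, and titles gave the groups. Total counts per library are given in the report.

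Estimated counts were rounded and fitted in edgeR 4.0.16 (R 4.3.3) by quasi-likelihood, with TMM factors, 3 group means over all 9 libraries, and filterByExpr (minimum count 10, minimum total 15), which left 16469 of 22127 genes. Tests were two-sided, with Benjamini-Hochberg adjustment over all tested genes and a threshold of 0.05. Standard errors are the size of the log2 fold change over the root of F, intervals are at 95%, and CPM errors are SDs. Deviations per library are on log2 CPM (prior count 2). Sequencing depth limits counting error only. The steps were tested on simulated data.

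The members and lists were chosen with earlier results of these data known. All members were accounted for by role. Values per library were given for members called, the 2 of smallest p per role, the PDH kinases, PDHA1, CS, PC, PCK2 and ACLY, and of the further list for the 3 of smallest p; SDHA, LDHA and LDHB were named whatever their values, and 1 further gene is not reported here. ME2, which the rule names by its ratio to ME1, had its libraries added after their values were seen.

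Replicate numbers were checked by correlating deviations from the group means across genes. Same-numbered libraries of the 2 low glucose media gave 0.115, 0.243 and 0.102, and unlike numbers -0.174 to 0.0390. The former are each over 0.1, which was read as possible pairing, though no label states it. Deviations from a group mean cancel out within a medium, so values for like and unlike numbers depend on each other. The difference between them was not tested. Pairs with control gave 0.0417 to 0.144 for the same number and -0.105 to 0.0692 for unlike numbers. The main fit is unpaired, and the replicate block is an alternative to it. The closest replicates still differed beyond sampling noise (chi-square per degree of freedom at least 39.2). Alternatives were RLE factors, no filter, genes averaging 50 counts or more, the replicate block, fits of 6 libraries, DESeq2 1.42.0, limma-voom (limma 3.58.1) and leaving out each library. Figures used matplotlib 3.10.9.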

Additional observations from a re-analysis of the deposited data

How the results depend on the processing

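Under 16 alternatives per comparison, 851 of 861 values of 18 named members kept their side of the threshold, and no call changed direction. The 10 exceptions were all ME1. The other named members started far above the threshold, PDK3 lowest at an edgeR adjusted p of 0.379, so the count says little about their stability. Uncalled values could change sign. In low glucose against control the log2 fold change ran from -0.20 to 0.47 for PCK2 and from -0.13 to 0.26 for ACLY. PDK4 and the mean count of at least 50 gave no value together. With BHB against control, ME1 made the count of members called 1 in the fit of only the 6 libraries compared, in DESeq2 and in limma-voom. Leaving out single libraries gave 0 to 1 members called in low glucose against control and 0 to 1 with BHB against control. The number of all genes called was 334 in low glucose against control, 557 in DESeq2, and 196 to 391 without single libraries (196 without control replicate 3, 197 without low glucose replicate 2). With BHB against control it was 228, 420 in DESeq2, and 91 to 257 without single libraries (122 and 91 without control replicates 1 and 3, 133 and 94 without BHB replicates 1 and 3). Between the low glucose media DESeq2 called 2 genes where edgeR called 0. With the replicate block, the counts of members called were 1, 0 and 0 and those of all genes 405, 278 and 0; the block changed no call among the members. Median log2 fold changes of the members stayed between -0.09 and 0.08 in all alternatives, each within the spread between replicates of 0.0972. PDK4 had 1 to 66 counts per library, and 1, 66 and 39 in the control libraries alone.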
